A study of Mus musculus with 9 samples.

Results

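The miR-17-92 and miR-106b-25 clusters are a pair of related groups of microRNAs (miRNAs), small noncoding RNAs that repress messenger RNAs carrying matching sites. The 9 members described here were taken by their miRBase identifiers, 1 mature arm of each hairpin, from the 876 mature miRNAs that had at least 1 count in any of 9 mouse serum small RNA libraries. The miR-17-92 cluster contributed 6 members, which are miR-17-5p (MIMAT0000649), miR-18a-5p (MIMAT0000528), miR-19a-3p (MIMAT0000651), miR-20a-5p (MIMAT0000529), miR-19b-3p (MIMAT0000513) and miR-92a-3p (MIMAT0000539). The miR-106b-25 cluster contributed 3 members, which are miR-106b-5p (MIMAT0000386), miR-93-5p (MIMAT0000540) and miR-25-3p (MIMAT0000652). The rule uses no measured value. The serum came from healthy 129/SVj mice, males and females combined, aged between 2 and 9 months. RNA from each of the serum pools A, B and C was split between an undepleted control, a fraction depleted of 5′ tRNA-half fragments with magnetic beads, and a fraction depleted with RNase H, which gave 3 groups of 3 libraries. Both depletions used biotinylated DNA probes against the 5′ parts of glutamine, glycine, valine and histidine tRNAs. Beads pull the probes out together with the bound RNA, whereas RNase H cleaves the RNA of a DNA/RNA duplex and DNase I then removes the probes. The labels call A, B and C separate pools, but the methods describe aliquots of serum pooled from 3 mice, so p-values measure the spread between these libraries, which may be technical only. The comparisons address whether depletion kept the relative levels of the miRNAs.

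In each of these clusters, 1 long primary transcript is cut into several hairpins, and each hairpin into mature miRNAs. The miR-17-92 cluster, also known as oncomiR-1, lies in the noncoding host gene Mir17hg, is switched on by MYC and E2F factors and is known for promoting proliferation and survival of blood and tumour cells. The miR-106b-25 cluster is carried by Mcm7, which encodes a subunit of the replicative helicase, and is therefore expressed along with a gene of cycling cells. Members of both clusters are found in red blood cells, platelets and serum. A miRNA recognises its targets mainly through its seed, here bases 2 to 8 from the 5′ end. The miR-17 seed group includes regulators of the cell cycle inhibitor p21 and of E2F1, and the miR-92 group represses the pro-apoptotic gene Bim.

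The mature sequences are shown because the comparisons below set members with the same seed against each other. They were taken from RefSeq (GRCm38.p6), where all 9 members had an entry, and are written 5′ to 3′ with the seed in capitals.
miR-17-5p: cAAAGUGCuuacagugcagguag
miR-20a-5p: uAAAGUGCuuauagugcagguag
miR-106b-5p: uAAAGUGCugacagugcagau
miR-93-5p: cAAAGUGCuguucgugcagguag
miR-18a-5p: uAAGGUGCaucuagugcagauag
miR-19a-3p: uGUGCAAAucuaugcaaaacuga
miR-19b-3p: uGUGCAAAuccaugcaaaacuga
miR-92a-3p: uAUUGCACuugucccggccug
miR-25-3p: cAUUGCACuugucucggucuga
The first 4 share the miR-17 seed, which 7 of the 1679 mature mouse miRNAs in RefSeq carry (0.417%). miR-18a-5p has a seed of its own among the members, miR-19a-3p and miR-19b-3p are the only RefSeq miRNAs with theirs, and the miR-92 seed of miR-92a-3p and miR-25-3p is found in 6 (0.357%). Counted from the 5′ end, miR-17-5p and miR-20a-5p differ by C1U and C12U, with the base of miR-17-5p first. miR-19a-3p and miR-19b-3p differ by U11C alone. miR-20a-5p and miR-106b-5p differ by U10G, U12C and G20A over the 21 bases that both have. No pair of members shares a run of more than 12 bases, below the shortest read kept by the authors (15 bases), and reads had to match without mismatches. miR-18a-5p shares 17 bases with miR-18b-5p, a miRNA of a paralogous cluster on the X chromosome, so a shortened read could belong to either of these.

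The 6 hairpins of the miR-17-92 cluster span 836 bases at chr14:115043671-115044506 (GRCm38) on the plus strand and are exonic in the single annotated transcript of Mir17hg (chr14:115042879-115046727). The 3 hairpins of the miR-106b-25 cluster span 498 bases at chr5:138165321-138165818 on the minus strand, inside Mcm7 (chr5:138164583-138172422). The hairpin of miR-106b-5p is intronic in 2 Mcm7 transcripts, and those of miR-93-5p and miR-25-3p are intronic in 2 and exonic in 1. miR-19b-3p and miR-92a-3p each have another hairpin on the X chromosome, Mir19b-2 (chrX:52741983-52742066) and Mir92-2 (chrX:52741838-52741928), with the same mature sequence. Counts of these miRNAs can therefore come from more than 1 locus even for full-length reads, and the shares of the loci cannot be told apart. The other 7 members each have 1 locus, although shortened reads of miR-18a-5p could also belong to miR-18b-5p.

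The libraries were far from equal in depth. Control libraries held 205185 to 330676 miRNA counts, beads libraries 1822088 to 1995956 and RNase H libraries 1199 to 2040. A single count was worth 3.02 to 4.87 CPM in control libraries, 0.501 to 0.549 in beads libraries and 490 to 834 in RNase H libraries, where CPM, the level used throughout, stands for counts per 1000000 miRNA counts of the library. Members had counts in all 6 control and beads libraries, but RNase H libraries A, B and C listed 6, 5 and 5 of the 9. A count of 0 there allowed a level of up to 1471, 1517 and 2502 CPM (3 counts of the library). All intervals and limits cover counting error only, since the reads were amplified by PCR and carried no molecular identifiers. miRNA markers of blood cells or tissues were not analysed here, since the deposited identifiers carry no names in the tables used. miR-16-5p (MIMAT0000527), the abundant serum miRNA that the study tracked by RT-qPCR, was present in all 9 libraries.

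In undepleted serum the members spanned more than 3 orders of magnitude of level although each cluster is made as 1 transcript. All libraries were made with the same kit, and the study reported shares of tRNA types that differed between kits. Levels of different members therefore compare counts and need not give their amounts in serum. miR-92a-3p, the last hairpin of its cluster, was at 109306, 108106 and 110537 CPM in control pools A, B and C and was the second of 572 miRNAs by mean level in control libraries. miR-25-3p, the last hairpin of the other cluster, was at 50272, 54044 and 56615 (rank 5), and miR-93-5p was at 14119, 14461 and 13949 (rank 15). These 3 did not overlap each other in any group. miR-106b-5p was at 872, 919 and 1033 (rank 64), and the remaining members were lower still. miR-19b-3p was at 726, 517 and 438, and miR-17-5p at 468, 378 and 378. miR-19a-3p was at 239, 133 and 109 and miR-20a-5p at 175, 151 and 145, and each of these pairs overlapped between libraries. The lowest member was miR-18a-5p, at 58.5, 45.4 and 44.2 CPM, which rested on 12, 15 and 11 counts.

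**Figure D1:**
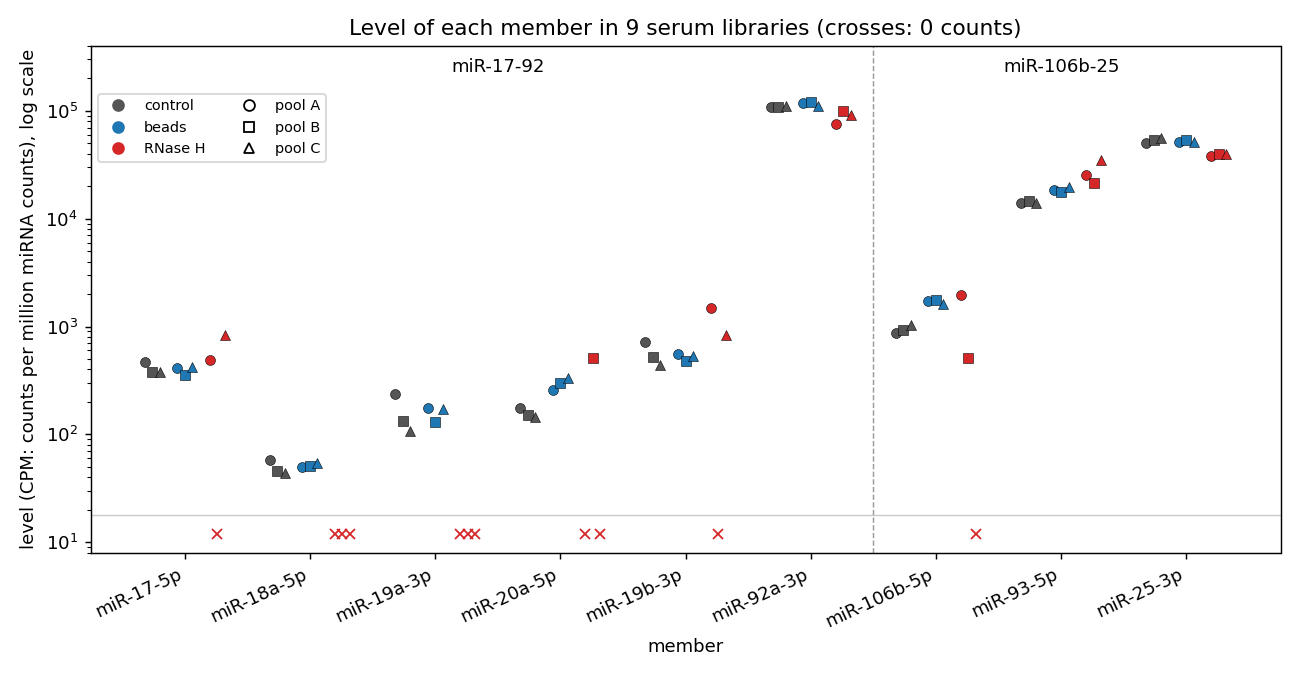
Level of each member (CPM, counts per 1000000 miRNA counts, log scale) in the 9 libraries. Colours give the group, symbols the serum pool, and crosses at the bottom mark libraries with 0 counts. miR-92a-3p, miR-25-3p and miR-93-5p sit at 13949 CPM or more in all 9 libraries, and every cross belongs to an RNase H library.

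Along the primary transcripts, the highest member in both clusters was the one nearest to the 3′ end. In the miR-106b-25 cluster the levels rose with each hairpin from miR-106b-5p through miR-93-5p to miR-25-3p. In the miR-17-92 cluster no such order was seen: miR-17-5p, from the first hairpin, was above miR-18a-5p, miR-19a-3p and miR-20a-5p from the next 3, and miR-92a-3p was far above its neighbours. This is a description of 9 arms, with no test.

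**Figure D2:**
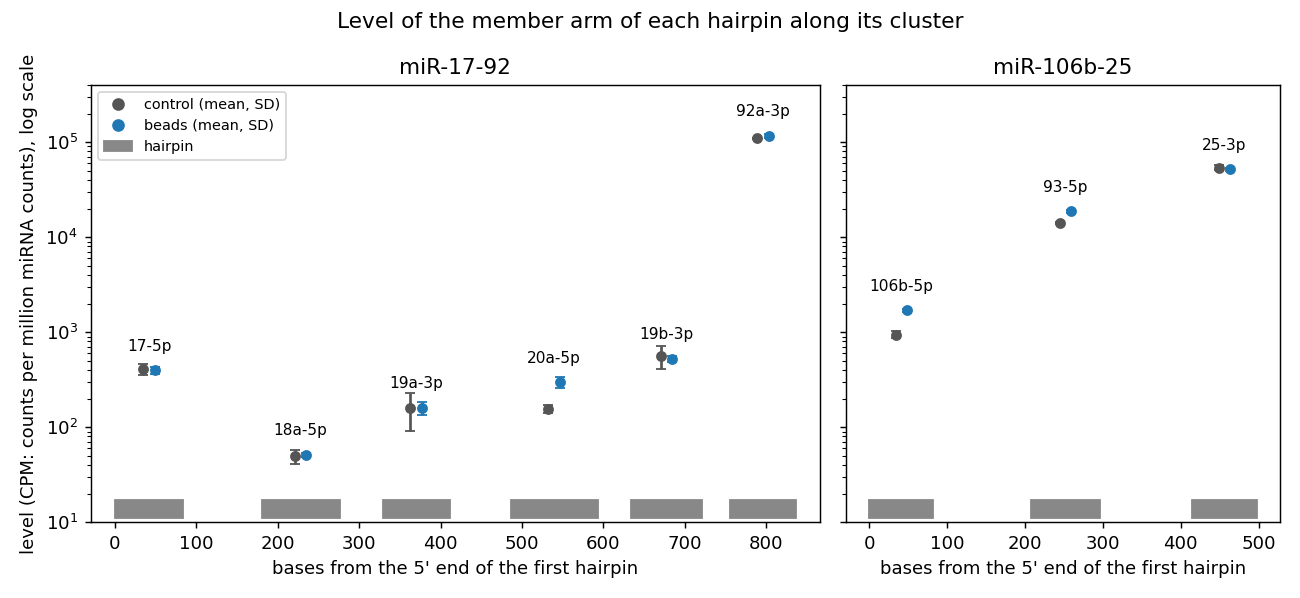
Mean level of each member (CPM, counts per 1000000 miRNA counts, log scale) with its SD over 3 libraries, at the place of its hairpin, in bases from the 5′ end of the first hairpin of the cluster. Grey boxes are hairpins, grey points control and blue points beads libraries. In the control libraries miR-18a-5p, at 49.4 CPM, is the lowest and miR-92a-3p, at 109316 CPM, the highest; the points of miR-19b-3p and miR-92a-3p also hold counts from the X chromosome.

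Summed, the 9 members made up 17.9% ± 0.355 (SD, n = 3) of the miRNA counts in control, 19.0% ± 0.506 (SD, n = 3) in beads and 15.8% ± 1.32 (SD, n = 3) in RNase H libraries. Control libraries ranged from 17.6% to 18.3%, beads libraries from 18.5% to 19.5% and RNase H libraries from 14.3% to 16.8%, so the groups did not overlap in this sum, which was given no test. The miR-17-92 cluster held 11.1% ± 0.119 (SD, n = 3) of the miRNA counts in control libraries and the miR-106b-25 cluster 6.88% ± 0.322 (SD, n = 3). The ratio of the first to the second was 1.61 ± 0.0773 in control, 1.63 ± 0.0681 in beads and 1.35 ± 0.244 in RNase H libraries (SD, n = 3 each), and all 3 groups overlapped. miR-92a-3p alone gave 98.8% ± 0.263 (SD, n = 3) of the counts of its cluster in control libraries. Without miR-19b-3p and miR-92a-3p, which have a locus elsewhere, the ratio of the clusters was 0.0113 ± 0.00268 (SD, n = 3) in control libraries.

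**Figure D3:**
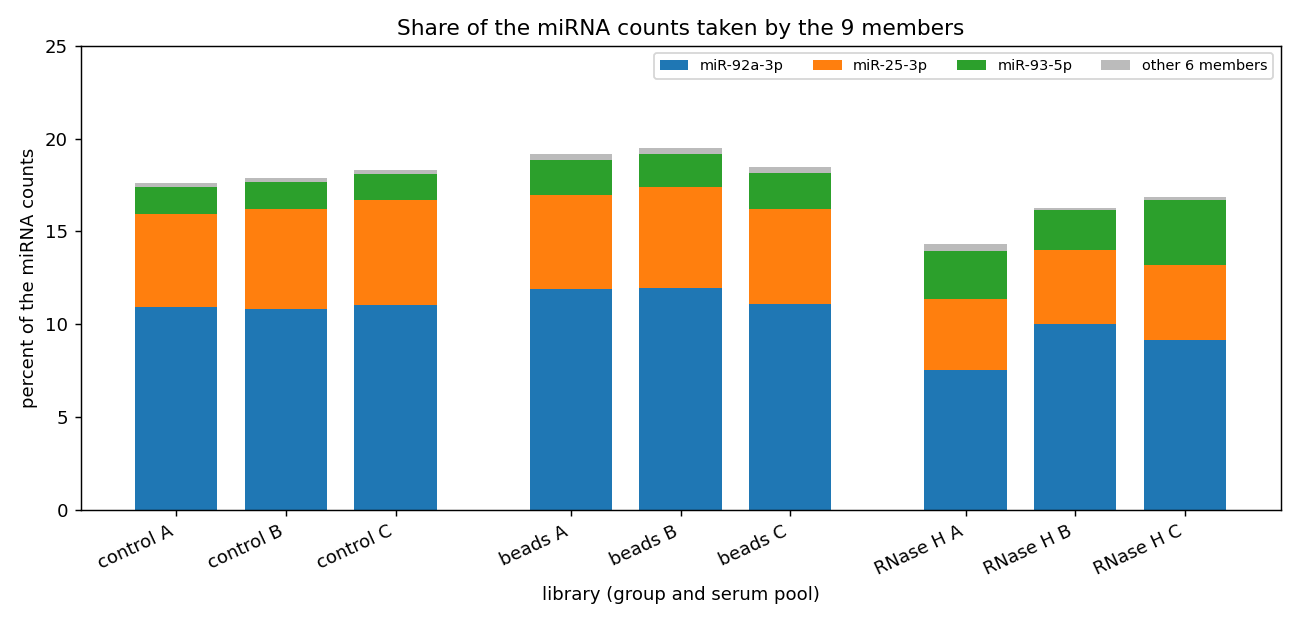
Share of the miRNA counts (percent, bars from 0) taken by miR-92a-3p, miR-25-3p, miR-93-5p and the other 6 members in each library. The whole bar is 17.6% to 18.3% in control, 18.5% to 19.5% in beads and 14.3% to 16.8% in RNase H libraries, and the green part, miR-93-5p, is at 1.39% to 1.45%, 1.79% to 1.95% and 2.12% to 3.50%.

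The share of miR-92a-3p in the miR-17-92 cluster was close to the same in all groups, at 98.8% ± 0.129 in beads and 98.4% ± 1.03 in RNase H libraries (SD, n = 3 each). The small share of miR-20a-5p rose from 0.142% ± 0.0146 in control to 0.254% ± 0.0409 in beads libraries (SD, n = 3 each), without overlap. In the miR-106b-25 cluster the shares of the abundant members differed between the groups. There, miR-25-3p gave 78.0% ± 1.03 (SD, n = 3) of the counts in control, 71.9% ± 1.37 (SD, n = 3) in beads and 58.8% ± 5.73 (SD, n = 3) in RNase H libraries. miR-93-5p gave 20.6% ± 1.09, 25.8% ± 1.41 and 40.0% ± 6.20 (SD, n = 3 each). Neither share overlapped between any of the groups. By seed, the miR-17 group of 4 members held 1.57% ± 0.0207 (SD, n = 3) of the miRNA counts in control, 2.11% ± 0.0825 (SD, n = 3) in beads and 2.87% ± 0.683 (SD, n = 3) in RNase H libraries. Most of this sum was miR-93-5p alone, with means of 1.42%, 1.87% and 2.73%. The miR-92 group of 2 members held 16.3% ± 0.385, 16.9% ± 0.592 and 12.9% ± 1.35 (SD, n = 3 each), and its control and beads libraries overlapped. The miR-19 group, at 0.0721% ± 0.0218 in control and 0.0683% ± 0.00656 in beads libraries (SD, n = 3 each), overlapped as well.

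After depletion with beads, 3 members were higher relative to the other miRNAs, and all of them carry the miR-17 seed: miR-20a-5p, miR-106b-5p and miR-93-5p. The 6 remaining members, among them miR-17-5p with the same seed, did not pass the test. The test was edgeR's quasi-likelihood test with Benjamini-Hochberg adjustment over the 307 miRNAs tested, all 9 members among them, at a threshold of 0.05. Over all miRNAs tested it called 16.6% higher and 10.1% lower, with a median log2 fold change of 0.043, against 3 of 9 members higher, 0 of 9 lower and a members' median of 0.093. At an unadjusted p under 0.05 edgeR likewise gave 3 higher and 0 lower, as did DESeq2 after adjustment. With 9 members, these counts are a description.

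miR-20a-5p was at 260, 302 and 334 CPM in beads pools A, B and C, against 175, 151 and 145 in control libraries. Every beads library lay above every control library. The log2 fold change was 0.94 ± 0.16 (SE), with an edgeR adjusted p of 6.77e-08. Its raw counts rose from 36, 50 and 36 to 500, 603 and 609, which was 13.9, 12.1 and 16.9 times as many within pools A, B and C, while all miRNA counts rose 9.39, 6.04 and 7.33 times.

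miR-106b-5p was at 1722, 1745 and 1627 CPM after beads, against 872, 919 and 1033 in control libraries, again without overlap. Its log2 fold change was 0.85 ± 0.096 (SE), with an edgeR adjusted p of 4.33e-17. This member of the Mcm7 cluster moved by about as much as miR-20a-5p of the other cluster, from which it differs at 3 bases outside the seed.

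miR-93-5p was at 18592, 17870 and 19532 CPM after beads, against 14119, 14461 and 13949 in control libraries. The groups did not overlap, and the difference was smaller than for the other members called. Its log2 fold change was 0.40 ± 0.064 (SE), with an edgeR adjusted p of 3.15e-09. In 12 alternative analyses, the fit with the serum pool as a block included, these 3 members were also called higher each time. A further alternative took all annotated counts as library size, where all 332 miRNAs tested were called higher.

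The remaining miR-17 seed member, miR-17-5p, was at 411, 356 and 425 CPM in beads libraries, within and around its control range of 378 to 468. Its log2 fold change was −0.018 ± 0.13 (SE), with an edgeR adjusted p of 0.933. miR-18a-5p was at 49.8, 50.6 and 54.3 CPM in beads libraries, all inside its control range, with a log2 fold change of 0.093 ± 0.28 (SE, adjusted p = 0.842 in edgeR). With this SE, on at most 15 counts in a control library, a difference the size of that of miR-93-5p was not detectable for miR-18a-5p.

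The members of the miR-19 group also overlapped between beads and control libraries. miR-19a-3p was at 175, 131 and 173 CPM after beads, a difference of 0.054 ± 0.18 on the log2 scale (SE), with an edgeR adjusted p of 0.855. miR-19b-3p was at 562, 479 and 530, a difference of −0.072 ± 0.12 (SE, edgeR adjusted p = 0.722). In control pool A both lay above control pools B and C, and without that library the log2 fold changes were 0.40 for miR-19a-3p, not called (adjusted p = 0.215), and 0.13 for miR-19b-3p.

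The abundant members of the miR-92 group had the narrowest errors. miR-92a-3p was at 118924, 119690 and 111002 CPM after beads, above all control libraries, with a log2 fold change of 0.098 ± 0.051 (SE) that did not pass the test (edgeR adjusted p = 0.151). miR-25-3p was at 50925, 54147 and 51192, inside its control range, and differed by −0.036 ± 0.056 on the log2 scale (SE), with an edgeR adjusted p of 0.711. miR-92a-3p had the highest mean level of all miRNAs in beads libraries and miR-25-3p the fifth. miR-20a-5p moved above miR-19a-3p in the order of the members, and no neighbours in that order overlapped among beads libraries.

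**Figure D4:**
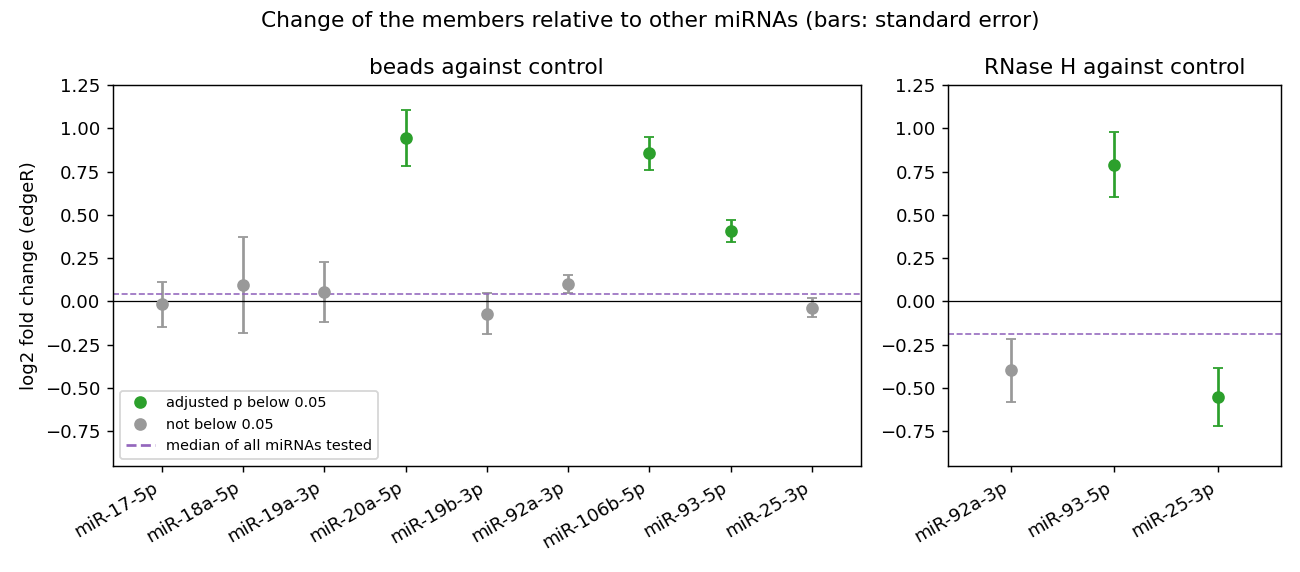
log2 fold change of each member relative to the other miRNAs (edgeR; bars are 1 SE) for beads against control and, for the 3 members with more than 5 counts over the RNase H libraries, for RNase H against control. Green points passed an adjusted p of 0.05, and the dashed line is the median of all miRNAs tested. On the left miR-20a-5p (0.94), miR-106b-5p (0.85) and miR-93-5p (0.40) stand above 0, and on the right miR-93-5p is at 0.79 and miR-25-3p at −0.55; with all annotated counts as library size, miR-93-5p on the right is at −0.58.

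These fold changes are relative to the sum of miRNA counts. When all annotated counts of a library (tRNA, rRNA, piRNA, snRNA and snoRNA reads included) served as its size, the median log2 fold change of all miRNAs was 3.37 for beads against control, −1.70 for RNase H against control and −5.60 for RNase H against beads. On that scale all 9 members were called higher after beads, as were 332 of the 332 miRNAs tested. miR-20a-5p, miR-106b-5p and miR-93-5p are thus higher relative to the other miRNAs of the library.

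Ratios of members with the same seed do not depend on library size, and 8 such pairs were compared between beads and control libraries (two-sided exact permutation test of the log2 ratios without pairing, whose smallest possible p is 0.1 with 3 against 3 libraries; folds are ratios of geometric means). The ratio of miR-17-5p to miR-20a-5p, both in the Mir17hg transcript, was 2.59 ± 0.0849 (SD, n = 3) in control libraries. In beads libraries it was 1.34 ± 0.211 (SD, n = 3), or 0.514 times the control value. The ratio of miR-17-5p to miR-106b-5p was 0.438 ± 0.0883 against 0.235 ± 0.0286 (SD, n = 3 each), or 0.540 times. The ratios of miR-17-5p, miR-20a-5p and miR-106b-5p to miR-93-5p in beads libraries were 0.742, 1.44 and 1.37 times those in control libraries. These 5 ratios moved the same way in all 3 pools and did not overlap between groups, and within pools A, B and C that of miR-17-5p to miR-20a-5p was 0.593, 0.472 and 0.487 times the control value (exact permutation p = 0.1 each, 0.16 after Benjamini-Hochberg adjustment over 8). This test could not have given a p under 0.05 for any of them. The other 3 ratios overlapped between groups. That of miR-20a-5p to miR-106b-5p was 0.169 ± 0.0307 in control and 0.176 ± 0.0275 in beads libraries (SD, n = 3 each, exact permutation p = 0.7, adjusted 0.7). That of miR-19a-3p to miR-19b-3p was 0.278 ± 0.0443 against 0.304 ± 0.0274 (SD, n = 3 each, exact permutation p = 0.4, adjusted 0.457). For miR-92a-3p to miR-25-3p it was 2.04 ± 0.117 against 2.24 ± 0.0868 (SD, n = 3 each, exact permutation p = 0.2, adjusted 0.267), although this ratio too was higher after beads in all 3 pools, at 1.07, 1.11 and 1.11 times the control value in A, B and C.

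**Figure D5:**
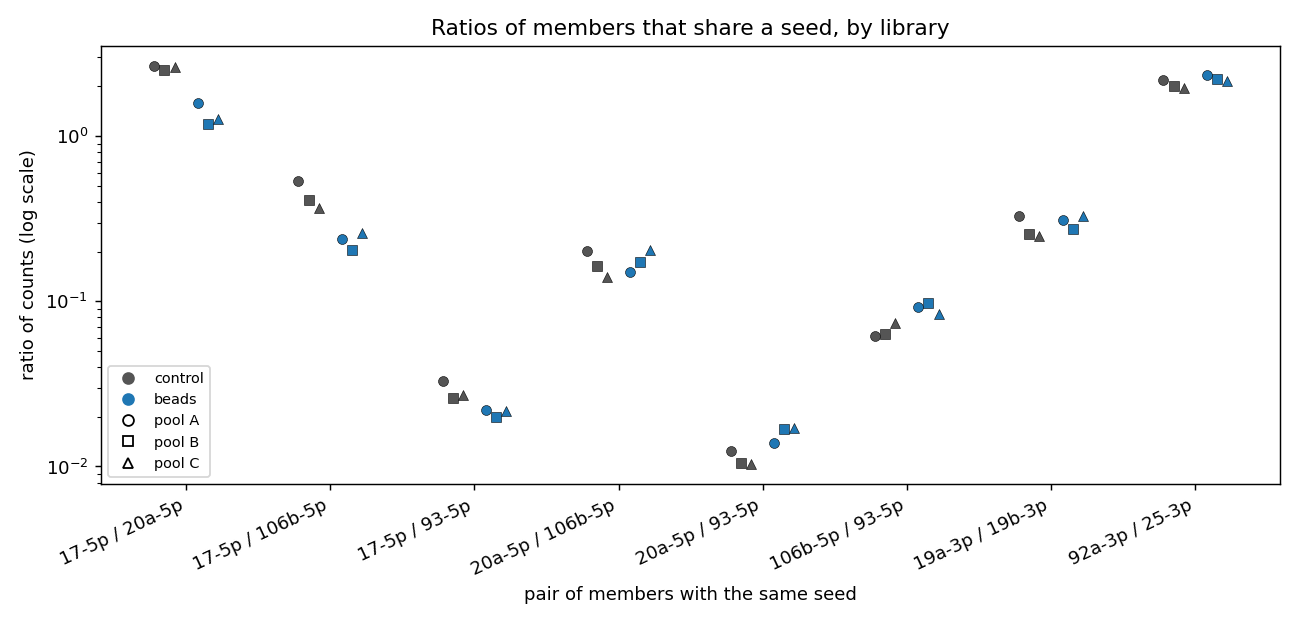
Ratio of counts (log scale) for the 8 pairs of members that share a seed, in the 3 control (grey) and 3 beads (blue) libraries, with symbols for the serum pool. The pair miR-17-5p and miR-20a-5p lies at 2.50 to 2.67 in control and 1.18 to 1.58 in beads libraries, whereas the pair miR-20a-5p and miR-106b-5p lies at 0.140 to 0.201 and 0.151 to 0.205.

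After depletion with RNase H, only miR-92a-3p, miR-25-3p and miR-93-5p had enough counts to be compared. Among these, miR-93-5p was higher and miR-25-3p lower relative to the other miRNAs, although both come from the same Mcm7 transcript. Of 138 miRNAs tested against control, edgeR called 6.52% higher and 5.07% lower, with a median log2 fold change of −0.19. The members tested were 8, since miR-18a-5p was removed by the filter on low counts, and 1 was called higher and 1 lower. At an unadjusted p under 0.05, as with DESeq2 after adjustment, 1 was higher and 2 were lower. The median of all miRNAs was 3.83 with DESeq2, however, against −1.23 with edgeR without a filter. In edgeR the median moved with the scaling, to 0.029 with DESeq2's size factors and −0.075 with the miRNA sum alone. On these scales miR-93-5p was at 1.00 and 0.89 and was called, and miR-25-3p was at −0.34 and −0.45 and was not (adjusted p = 0.130 and 0.0843).

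miR-93-5p was at 25490, 21244 and 35029 CPM in RNase H pools A, B and C, all above every control library, on 52, 42 and 42 counts. The log2 fold change was 0.79 ± 0.19 (SE), with an edgeR adjusted p of 0.00807. Over the 3 libraries 136 counts were observed (Poisson 95% interval 114 to 161), against 74.1 that its share in control libraries would have given. The call was lost without RNase H pool C (log2 fold change 0.54, adjusted p = 0.119). Without RNase H pool B it was 1.21, and with all annotated counts as library size the log2 fold change was −0.58 (adjusted p = 0.410).

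miR-25-3p was at 38235, 39960 and 40033 CPM, on 78, 79 and 48 counts, and all 3 libraries lay below every control library. The log2 fold change was −0.55 ± 0.17 (SE), with an edgeR adjusted p of 0.0383, and 205 counts were observed (178 to 235) against 281 at its control share. With the serum pool as a block the log2 fold change was −0.54 with an adjusted p of 0.219, and 5 of 13 alternatives called it. It was also lost when any 1 control library was left out (log2 fold changes of −0.28, −0.22 and −0.19 without A, B and C) and without RNase H pool B (−0.30) or C (−0.64, adjusted p = 0.119). Leaving out a control library also cut the miRNAs tested from 138 to 33 or 34. In those fits miR-93-5p was at 1.14, 1.16 and 1.13 (without A, B and C). They thus differ from the first fit in the miRNAs tested as well as in the library left out.

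miR-92a-3p was at 75490, 100152 and 91743 CPM, on 154, 198 and 110 counts. All 3 values were under the lowest control value of 108106, and the log2 fold change of −0.40 ± 0.18 (SE) did not pass the test (edgeR adjusted p = 0.188). It was called in 3 of 13 alternatives, among them the one without RNase H pool A, where it was −0.26 with an adjusted p of 0.0252. The ratio of miR-92a-3p to miR-25-3p in RNase H libraries, 2.26 ± 0.268 (SD, n = 3), overlapped that of the control libraries.

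The other 6 members had from 0 to 5 counts over the 3 RNase H libraries. Their shares in control libraries would have given 4.92 counts of miR-106b-5p, 2.85 of miR-19b-3p and 2.09 of miR-17-5p, and 5 (Poisson 95% interval 1.62 to 11.7), 4 (1.09 to 10.2) and 2 (0.242 to 7.22) were observed. For miR-20a-5p the control share gave 0.811 and 1 count (0.0253 to 5.57) was observed. For miR-19a-3p and miR-18a-5p it gave 0.798 and 0.253, and 0 counts were observed for each (Poisson 95% interval 0 to 3.69). The observed counts of these 6 were thus within counting error of the control shares, and changes as large as those of miR-20a-5p and miR-106b-5p after beads were not detectable at this depth.

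RNase H and beads libraries were also compared directly, and this comparison shares its libraries with those above. Of 263 miRNAs tested, edgeR called 1.52% higher and 2.28% lower, with a median log2 fold change of −0.85, and 0 of 9 members higher and 2 lower. At an unadjusted p under 0.05 the members' counts were the same, 0 higher and 2 lower, and DESeq2 called 1 higher and 0 lower. On the log2 scale, miR-92a-3p differed by −0.54 ± 0.17 (SE, edgeR adjusted p = 0.0433) and miR-25-3p by −0.56 ± 0.18 (SE, edgeR adjusted p = 0.0483). In both, all 3 RNase H libraries lay below all 3 beads libraries. miR-93-5p, with 0.34 ± 0.19 (SE, edgeR adjusted p = 0.460), did not pass although its RNase H libraries lay above its beads libraries. Neither call was kept with the serum pool as a block (adjusted p = 0.144 for miR-92a-3p and 0.194 for miR-25-3p) or with any 1 beads library left out, where miR-92a-3p was between −0.22 and −0.12 and miR-25-3p between −0.24 and −0.11. Leaving out a beads library also cut the miRNAs tested from 263 to 33. The call of miR-92a-3p was also lost without RNase H pool A (−0.46, adjusted p = 0.0508), and both were lost without RNase H pool C (adjusted p = 0.321 and 0.322). With DESeq2's size factors in edgeR the median was −0.47, 9 of the 10 miRNAs called were higher instead of 4, and miR-93-5p was the only member called (0.73, adjusted p = 0.00185).

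The miRNAs whose levels ran most like the summed level of each cluster over the 9 libraries were sought among the 17 other miRNAs with at least 10 counts in every library. For the miR-17-92 cluster they were MIMAT0000648 (Pearson's r = 0.894) and MIMAT0000221 (r = 0.846), and for the miR-106b-25 cluster MIMAT0000154 (r = 0.589) and MIMAT0000517 (r = 0.565). All 9 points share their groups and depths, so these values are a description.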

How the data were processed

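RNA was isolated from 200 µl serum aliquots, and libraries were prepared with the TruSeq small RNA kit (15 PCR cycles). The authors trimmed adapters (Cutadapt v1.8.1, versions from the submitters' processing notes and the methods), discarded reads under 15 bases, kept reads with a quality of at least 20 in 80% of bases (FASTX-Toolkit v0.0.14), aligned them with Bowtie (v1.1.2) to the GRCm38 genome, allowing no mismatch, and annotated them with miRBase v20 and Ensembl v84. The deposited values are raw counts, as 1 miRNA file and 1 file of other small RNA sequences per library, 18 files in all. The no-mismatch rule leaves out reads with untemplated ends, so a level covers the templated isoforms only.

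Groups and pools came from the labels. A quasi-likelihood test in edgeR 4.0.16 (R 4.3.3; TMM, filterByExpr, 2 groups per fit) was run on the counts of all miRNAs, with their sum as library size, after the fits were tested on simulated counts. The SE of a log2 fold change follows from its F statistic. Ratios were tested with SciPy 1.17.1, and a Poisson interval is exact. The serum pools pair the libraries by their labels. As a check, deviations from the group means correlated between control and beads with r = 0.249, 0.159 and −0.253 in pools A, B and C. Between control and RNase H the values were 0.292, 0.213 and 0.201, and between beads and RNase H 0.077, −0.258 and 0.060. Alternatives were DESeq2 1.42.0, other size factors, no filter, a joint fit, the pool as a block, and each library left out. No pair of replicates agreed within sampling noise.

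The members, lists and tests were chosen with earlier results of these data known. All 9 members are named. Lists of related miRNAs and of blood cell markers, fixed by name, were not analysed here, because the identifiers carry no names in the tables used, and the names of the members came with the choice of members. Positions came from RefSeq and GENCODE vM21 for GRCm38.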

Additional observations from a re-analysis of the deposited data

How the results depend on the processing

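Depth limits the RNase H comparisons, where 1 count was worth at least 490 CPM. The calls of miR-20a-5p, miR-106b-5p and miR-93-5p after beads held in each of the 12 alternatives that did not use all annotated counts as library size. The serum pool as replicate block changed no member's call for beads against control and left 1 member called (miR-93-5p) for RNase H against control, and 6 miRNAs and 0 members for RNase H against beads. With all annotated counts as library size, 332 miRNAs and 9 members were called for beads against control (all higher), 51 and 1 for RNase H against control (4 higher and 47 lower) and 250 and 9 for RNase H against beads (2 higher and 248 lower), which follows from the shift in the medians. DESeq2 called 32 of 207 miRNAs for RNase H against control (24 higher). For RNase H against beads it called 406 of 838 (404 higher), with 1 member among them. With edgeR these were 16 of 138 (9 higher) and 10 of 263 (4 higher), and the cause of the difference was not tested. For RNase H against control the median log2 fold change was 3.83 with DESeq2 and −1.23 with edgeR without a filter. For RNase H against beads these medians were 5.73 and −2.66. In the latter comparison miR-18a-5p, with 0 counts in all RNase H libraries, was at 1.30 with DESeq2. A DESeq2 value above 0 in these comparisons therefore does not by itself show a higher level. With RLE size factors, 1 member was called in each RNase H comparison. Without any factor, 1 member was called for RNase H against control, and 5 miRNAs and 0 members for RNase H against beads. With 1 library left out, calls ranged from 4 to 14 miRNAs and 0 to 3 members for RNase H against control, and from 1 to 22 miRNAs and 0 to 2 members for RNase H against beads. Leaving out a control or beads library there also lowered the number of miRNAs tested to 33 or 34.

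The 9 members made up 1.08%, 11.5% and 0.372% of all annotated counts in control, beads and RNase H libraries. The ratio of the clusters without miR-19b-3p and miR-92a-3p was 0.0113, 0.0125 and 0.00892.

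Some log2 fold changes had another sign elsewhere. Of these, only that of miR-93-5p for RNase H against control was called in the main edgeR fit (TMM). For RNase H against beads, that of miR-93-5p was called with RLE size factors (0.73, edgeR adjusted p = 0.00185) and with DESeq2 (0.73, DESeq2 adjusted p = 0.00117). With all annotated counts the signs followed the shift of the medians. There, for beads against control, miR-17-5p was at 3.29, miR-19b-3p at 3.25 and miR-25-3p at 3.28, all called. For RNase H against control, miR-20a-5p was at −1.40, miR-19b-3p at −1.25 and miR-93-5p at −0.58, none called, and for RNase H against beads, miR-19b-3p was at −4.50 and miR-93-5p at −4.30, both called. In the other settings none of these values was called. For beads against control, miR-19a-3p was at −0.011 with DESeq2 and −0.16 to 0.40 with 1 library left out, miR-17-5p at 0.022 without a filter and −0.082 to 0.081 with 1 library left out, miR-19b-3p at −0.23 to 0.13 with 1 library left out, and miR-25-3p at 0.0039 without a filter. For RNase H against control, miR-17-5p was at 0.024 with DESeq2, 0.030 with RLE factors and −0.88 to 0.78 with 1 library left out, miR-106b-5p at 0.13 with DESeq2, 0.13 with RLE factors, 0.023 without a factor and −1.66 to 0.56 with 1 library left out, miR-20a-5p at −7.62 to 0.93 and miR-19b-3p at −0.89 to 1.33 with 1 library left out. For RNase H against beads, miR-17-5p was at 0.18 with DESeq2, 0.18 with RLE factors and −0.84 to 0.37 with 1 library left out, miR-18a-5p at 1.30 with DESeq2 and miR-19b-3p at −0.92 to 0.97 with 1 library left out. Fitted values of members with 0 counts in a group are no bounds.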
